A study of Mus musculus with 4 samples.

Results

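The core genes of the circadian clock were followed in the dentate gyrus of mice after repeated electroconvulsive stimulation (ECS) and after chronic fluoxetine, a selective serotonin reuptake inhibitor. All probe sets annotated to Per1, Per2, Per3, Cry1, Cry2, Arntl (also called Bmal1), Clock, Nr1d1, Nr1d2 or Ciart were taken. This gave 14 of 22690 probe sets, for 9 of the 10 genes. No probe set of the platform annotation used here names Ciart, so its signal was not analysed here. A mean deposited signal of 50 over the 4 arrays was asked of a probe set to count as measured. Of the 14 probe sets 9 met this, for 8 genes, as did 13422 of all probe sets other than array controls.

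The study hybridized 4 arrays, 1 for each group, to RNA pooled from the mice of that group. The ECS pool came from C57Bl/6 mice given 11 bilateral shocks through ear clips under isoflurane, and the sham pool from mice handled in the same way without shock. The fluoxetine pool came from mice that drank the drug at 22 mg/kg per day for 28 days, and the vehicle pool from mice labelled as given water for the same 28 days. By the methods the mice were males, and the fluoxetine-treated mice were 3 animals selected for small frequency facilitation at the mossy fibre synapse, so that pool does not stand for all treated mice. The labels of the ECS and sham arrays give 6 h, whereas the methods give a later time after the last shock, and slices were cut before the dentate gyrus was dissected. The time of day at which the mice were killed is not given in the sources used here. Each group has 1 array, so nothing was replicated, and differences carry no p-value and no SD between animals.

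In mammalian cells the clock is a feedback loop of transcription. CLOCK and BMAL1 bind E-box sequences and switch on the Period and Cryptochrome genes, whose proteins return to the nucleus and repress CLOCK and BMAL1. REV-ERB alpha and beta, encoded by Nr1d1 and Nr1d2, form another loop that represses Arntl. Per1 and Per2 are also induced directly by light, hormones and cyclic AMP signals in many tissues, and the hippocampus is known to hold such a clock outside the master pacemaker of the hypothalamus.

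The promoters of the 3 members that were past 1.5-fold with ECS are shown so that motifs known to bind clock and cyclic AMP factors can be read in them. RefSeq promoter windows of 300 bases, 250 before and 50 after a transcript start, were found for 9 of the 10 genes (build GRCm38.p6). There were 13 windows in all since some genes have several starts. No window was found for Per2, so its promoter was not searched. Capitals mark every match on either strand. The E-box was searched as CACGTG, with its variant CACGTT, and the D-box as TTATGTAA or TTACGTAA. The cAMP response element was searched as TGACGTCA, which also contains its shorter core TGACG. The element of REV-ERB and ROR receptors was searched as AGGTCA. The windows are chr11:69098699-69098998 and chr11:69099902-69100201 on the plus strand for the 2 starts of Per1, chr10:85185005-85185304 on the minus strand for Cry1, and chr4:151044616-151044915 on the minus strand for Per3.
Per1, upstream start: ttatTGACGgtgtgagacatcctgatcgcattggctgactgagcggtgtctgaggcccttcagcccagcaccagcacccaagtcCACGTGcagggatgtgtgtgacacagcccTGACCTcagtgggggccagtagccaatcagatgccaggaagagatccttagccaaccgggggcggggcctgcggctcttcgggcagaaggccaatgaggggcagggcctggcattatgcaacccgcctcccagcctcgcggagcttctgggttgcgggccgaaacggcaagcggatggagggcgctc
Per1, downstream start: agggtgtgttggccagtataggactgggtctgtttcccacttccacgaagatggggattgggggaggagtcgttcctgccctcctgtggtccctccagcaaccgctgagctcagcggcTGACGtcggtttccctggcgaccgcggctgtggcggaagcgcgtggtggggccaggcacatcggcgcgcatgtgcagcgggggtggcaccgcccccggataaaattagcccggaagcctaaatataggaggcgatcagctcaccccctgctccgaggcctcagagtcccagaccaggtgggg
Cry1: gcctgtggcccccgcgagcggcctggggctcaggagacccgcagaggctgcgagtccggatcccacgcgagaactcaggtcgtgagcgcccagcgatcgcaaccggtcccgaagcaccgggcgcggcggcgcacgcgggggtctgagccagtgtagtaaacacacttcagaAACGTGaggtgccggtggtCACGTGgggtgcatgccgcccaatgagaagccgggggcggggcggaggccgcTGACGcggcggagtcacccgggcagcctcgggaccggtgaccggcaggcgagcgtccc
Per3: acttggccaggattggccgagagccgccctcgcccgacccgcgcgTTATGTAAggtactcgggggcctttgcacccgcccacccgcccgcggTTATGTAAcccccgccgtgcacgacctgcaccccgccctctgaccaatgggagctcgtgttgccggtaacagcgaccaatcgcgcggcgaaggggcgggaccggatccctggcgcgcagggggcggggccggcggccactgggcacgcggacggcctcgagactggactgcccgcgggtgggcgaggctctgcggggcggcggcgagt
Per1 and Cry1 each held an E-box, with its first base at position -166 from the upstream start of Per1 and at -60 from the start of Cry1, counting the base before the start as -1. This motif was present in 3 of the 13 windows (1 each of Per1, Cry1 and Ciart, which held it at -116, -58 and -44), and in 7.15% of all 32851 windows. The core TGACG was in 4 of the 13 windows (of Per1, Cry1 and Cry2), against 20.8% of all windows, and the full cAMP response element was in none, against 1.79%. The window of Per3 held the D-box TTATGTAA at -205 and -158 and was the 1 window of the 13 with this motif, which was in 0.938% of all windows. CACGTT was in 3 windows (of Cry1, Cry2 and Nr1d1) and in 4.68% of all windows, AGGTCA in 4 windows (of Per1, Arntl, Clock and Nr1d2) and in 16.3%, and TTACGTAA in none of the 13 and in 0.119%. A match describes these letters only, and binding was not measured.

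The signals had no common scale as deposited. Median signals past the filter were 219 on the ECS array, 236 on the sham array, 365 on the fluoxetine array and 335 on the vehicle array. Each array was therefore scaled to a common median log2 signal, and signals below are scaled intensities. As deposited, the median log2 ratio was -0.10 for ECS over sham and 0.12 for fluoxetine over vehicle. Of probe sets past 1.5-fold, 56.1% were higher with ECS and 53.5% with fluoxetine after scaling, against 36.9% and 73.5% as deposited. The scatter between the sham and vehicle pools, which also differ in handling, stands in for an error. Over the 500 probe sets closest to a member in mean signal, the log2 ratios of sham to vehicle gave a median absolute deviation, which was put on the scale of an SD; this is the control spread. Between the 2 brightest probe sets of 2978 genes, log2 ratios differed by a median of 0.17 with ECS and 0.16 with fluoxetine.

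Of the members of the clock, 3 were past 1.5-fold with ECS and 1 with fluoxetine. With ECS, Per1 was higher and Cry1 and Per3 were lower, which is 3 of 9 probe sets, against 9.48% of all probe sets past the filter (5.31% higher and 4.16% lower). With fluoxetine, Per2 was the 1 member of 9 past this size, and it was higher. This share is near the background, since 10.6% of all probe sets were past 1.5-fold there (5.69% higher and 4.94% lower). With the control arrays exchanged Per2 was past 1.5-fold upward with both treatments, at 0.63 for ECS and 0.76 for fluoxetine. The 9 probe sets had a median log2 ratio of -0.20 with ECS, where all probe sets had 0.01. For fluoxetine the median of the 9 was -0.16, where all probe sets had 0.00. None of the 9 was past 1.5-fold between sham and vehicle, against 3.7% of all probe sets. Signals come from bulk tissue, so fewer cells of a type and less RNA per cell cannot be told apart.

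**Figure D1:**
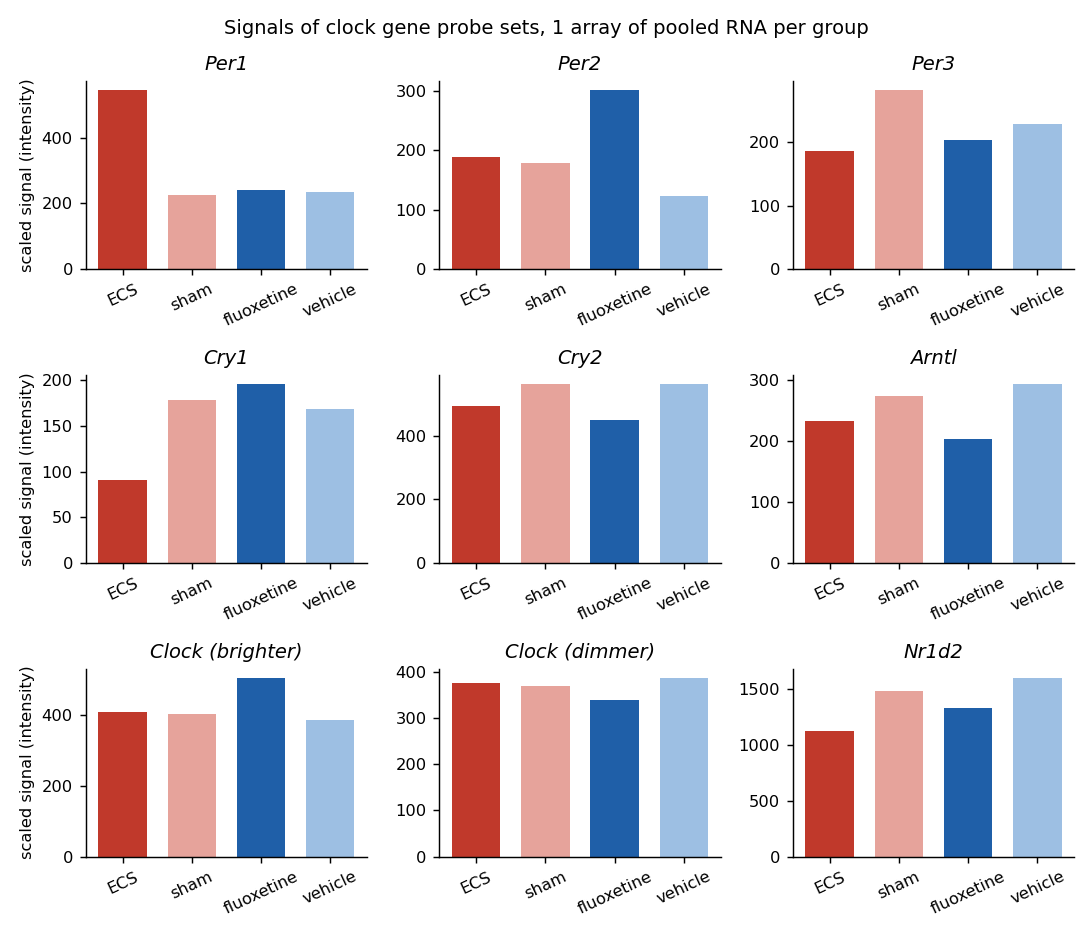
Scaled signal intensity (linear axis from 0) of the 9 clock gene probe sets past the filter in the ECS, sham, fluoxetine and vehicle pools, 1 bar per array and no error bar since each group has 1 array. Per1 stands out on the ECS array at 546, Cry1 is lowest there at 90.5, and Per2 is highest on the fluoxetine array at 301.

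Per1 encodes a Period repressor that is also an immediate early gene of the clock. Its signal was 546 in the ECS pool and 225 in the sham pool, and 240.0 in the fluoxetine pool and 234 in the vehicle pool. The ECS array was thus high and the other 3 arrays lay close together. Per1 was 2.43-fold higher with ECS, a log2 ratio of 1.28 at a control spread of 0.18, and 0.954% of all probe sets had a ratio as high or higher. The log2 ratio with fluoxetine was 0.04, and that of sham to vehicle was -0.06. Over 8 alternative settings the log2 ratio with ECS lay between 1.17 and 1.28. The other signal filters and the signal floor could not alter this ratio, so they do not test it. The range rests on unscaled signals (1.17), quantile normalization (1.28), the pseudocount (1.22) and exchanged control arrays (1.22).

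Per2 encodes the Period protein whose loss disrupts rhythms most strongly in mice. Its brighter probe set had a signal of 189 in the ECS pool and 178 in the sham pool, and 301 in the fluoxetine pool and 122 in the vehicle pool. The fluoxetine array was high and the vehicle array was the lowest of the 4. Per2 was 2.47-fold higher with fluoxetine, a log2 ratio of 1.30 at a control spread of 0.22, and 1.18% of all probe sets had a ratio as high or higher. With ECS the log2 ratio was 0.08. The control pools themselves differed for this probe set, with a log2 ratio of sham to vehicle of 0.55, and 2.52% of all probe sets were as high there. With the control arrays exchanged, the log2 ratio was 0.76 for fluoxetine over sham and 0.63 for ECS over vehicle, both past 1.5-fold. Its other probe set was below the filter, with scaled signals of 31.5 in the ECS pool, 24.7 in the sham pool, 32.6 in the fluoxetine pool and 18.5 in the vehicle pool. Both probe sets gave the same order of the 4 arrays, with fluoxetine highest and vehicle lowest.

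Per3 encodes the third Period protein, which is dispensable for the core rhythm in mice. Its measured probe set had a signal of 187 in the ECS pool and 283 in the sham pool, and 205 in the fluoxetine pool and 229 in the vehicle pool. The sham array was the highest and the ECS array the lowest. Per3 was 1.51-fold lower with ECS, a log2 ratio of -0.60 at a control spread of 0.20, which is just past the size of 1.5-fold. With fluoxetine its log2 ratio was -0.16, and sham over vehicle gave 0.30. The decrease with ECS was under 1.5-fold with a pseudocount of 16, at -0.56, and with the vehicle array as control, at -0.29. The other 2 probe sets of Per3 were below the filter, with mean deposited signals of 26.9 and 12.6.

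Cry1 encodes the Cryptochrome that represses CLOCK and BMAL1 late in the cycle. Its signal was 90.5 in the ECS pool and 179 in the sham pool, and 196 in the fluoxetine pool and 169 in the vehicle pool. The ECS array was low and the other 3 arrays lay close together. Cry1 was 1.97-fold lower with ECS, a log2 ratio of -0.98 at a control spread of 0.25, and 1.01% of all probe sets had a ratio as low or lower. Its log2 ratio was 0.22 with fluoxetine and 0.08 for sham over vehicle. Over 7 alternatives the log2 ratio with ECS lay between -1.09 and -0.87. Cry1 was below the strictest signal filter, so that setting gave no value. The other filters and the signal floor could not alter this ratio. The range rests on unscaled signals (-1.09), quantile normalization (-1.01), the pseudocount (-0.87) and exchanged control arrays (-0.90).

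Cry2 encodes the other Cryptochrome. Its signal was 493 in the ECS pool and 565 in the sham pool, and 451 in the fluoxetine pool and 563 in the vehicle pool. Both control arrays were level and both treated arrays lay below them, at log2 ratios of -0.20 for ECS and -0.32 for fluoxetine. The control spread was 0.18, and neither ratio was past 1.5-fold. Beside each other, Cry1 and Cry2 were at -0.98 and -0.20 for ECS, and at 0.22 and -0.32 for fluoxetine.

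The activators were under 1.5-fold in both comparisons. Arntl, which encodes BMAL1, had a signal of 234 in the ECS pool and 274 in the sham pool, and 203 in the fluoxetine pool and 294 in the vehicle pool. Both treated arrays were below both control arrays, at a log2 ratio of -0.23 for ECS and -0.53 for fluoxetine and a control spread of 0.20. For fluoxetine 5.91% of all probe sets were as low or lower. Clock, which encodes the partner of BMAL1, had 2 measured probe sets. The brighter had a signal of 410.3 in the ECS pool and 404 in the sham pool, and 508 in the fluoxetine pool and 389 in the vehicle pool. The dimmer had 378 in the ECS pool and 370.3 in the sham pool, and 341 in the fluoxetine pool and 389 in the vehicle pool. For ECS these gave log2 ratios of 0.02 and 0.03. For fluoxetine they gave 0.39 and -0.19, so the 2 probe sets of Clock had opposite signs.

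Of the repressors of Arntl, Nr1d2 was measured and Nr1d1 was not. Nr1d2, which encodes REV-ERB beta, had a signal of 1126 in the ECS pool and 1484 in the sham pool, and 1331 in the fluoxetine pool and 1599 in the vehicle pool. Each treated array was below its own control and below the other control, with the ECS array the lowest. Its log2 ratios were -0.40 for ECS and -0.26 for fluoxetine, both under 1.5-fold, and its control spread was 0.15. The other probe set of Nr1d2, with a mean deposited signal of 14.5, and the probe set of Nr1d1, with a mean of 43.6, were below the filter. Deposited signals of Nr1d1, which encodes REV-ERB alpha, were 36.8 in the ECS pool and 32.0 in the sham pool, and 36.0 in the fluoxetine pool and 69.7 in the vehicle pool. Only the vehicle array was above 50, so that the size of any ratio with fluoxetine is uncertain.

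**Figure D2:**
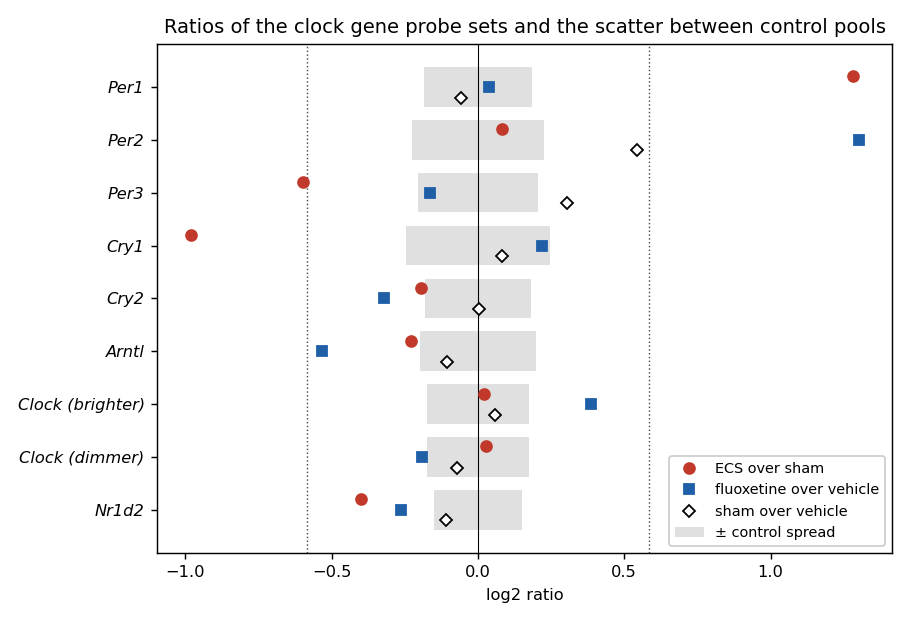
Log2 ratios of the 9 measured probe sets for ECS over sham (red circles), fluoxetine over vehicle (blue squares) and sham over vehicle (open diamonds); grey bars are plus and minus 1 control spread and dotted lines mark 1.5-fold. Per1 with ECS (1.28) and Per2 with fluoxetine (1.30) lie farthest to the right, Cry1 with ECS (-0.98) farthest to the left, and the open diamond of Per2 (0.55) lies farthest from 0 among the control ratios.

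The ratios with ECS and with fluoxetine were then set against each other. The difference of the 2 log2 ratios, ECS minus fluoxetine, was past 1.5-fold in 3 of 9 probe sets, 1 higher and 2 lower, against 9.48% of all probe sets (4.78% higher and 4.7% lower). It was 1.24 for Per1, and 0.507% of all probe sets were as high or higher. It was -1.22 for Per2, and 0.410% were as low or lower. It was -1.20 for Cry1, and 0.440% were as low or lower. The other 6 differences lay between -0.43 for Per3 and 0.31 for Arntl. No replicates exist, so none of these differences could be tested. With the control arrays exchanged, the difference was 1.13 for Per1 and -1.04 for Cry1, whereas that of Per2 was -0.13. The Per2 difference therefore rests on which control pool each treatment is divided by. Set directly against each other, the ECS array had 2.28 times the Per1 signal of the fluoxetine array, 0.626 times the Per2 signal and 0.461 times the Cry1 signal. With signals as deposited, the differences of Per3 (-0.67) and of the brighter Clock probe set (-0.60) were also past 1.5-fold.

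**Figure D3:**
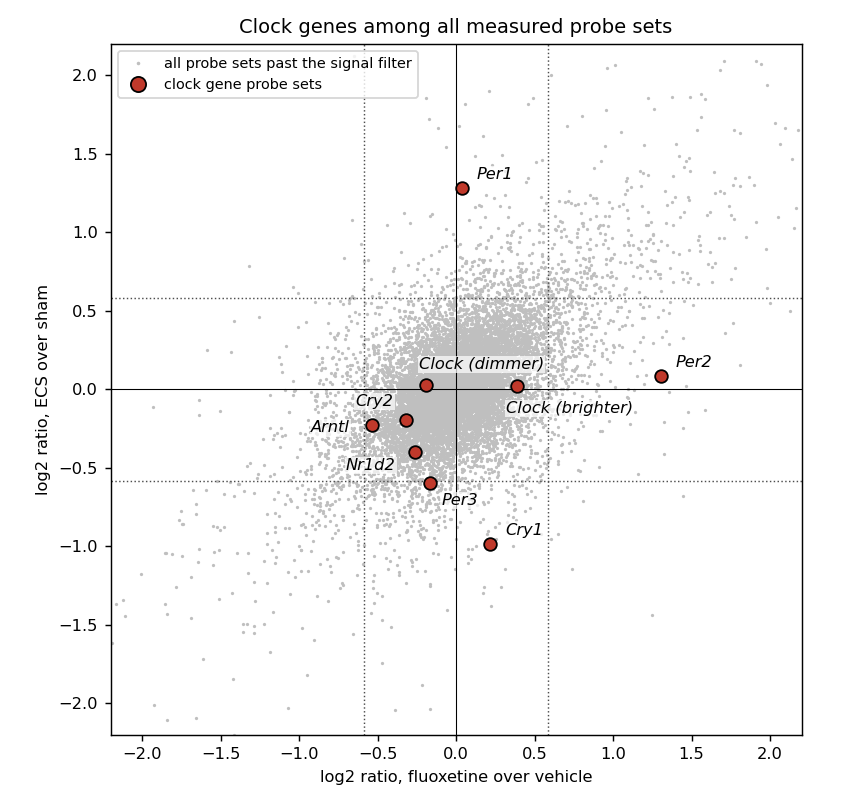
Log2 ratio of ECS over sham against log2 ratio of fluoxetine over vehicle for the 9 clock gene probe sets (red) and all 13422 probe sets past the filter (grey; 73 lie outside the axes), with dotted lines at 1.5-fold. Per1 lies above the cloud near 0 for fluoxetine (1.28 and 0.04), Cry1 below it (-0.98 and 0.22), and Per2 to its right near 0 for ECS (0.08 and 1.30).

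The genes nearest to Per1 and Per2 were taken by the distance between pairs of log2 ratios, over 7579 brighter probe sets and 2 ratios. Nearest to Per1 was Sgk1, a kinase gene induced by serum and glucocorticoids, at a distance of 0.16. Its signal was 2226 in the ECS pool and 847 in the sham pool, and 1224 in the fluoxetine pool and 1103 in the vehicle pool. Next came Lasp1, which encodes an actin-binding protein, Tiparp, an ADP-ribosyltransferase gene, Abcc5, a transporter gene, and Dusp6, a phosphatase gene of the ERK pathway, at distances of 0.21 to 0.29. These 5 genes had log2 ratios of 1.11 to 1.49 with ECS and -0.15 to 0.31 with fluoxetine. Nearest to Per2 were Olfm3, an olfactomedin gene, the receptor gene Notch1, Cnn3, which encodes a calponin, Spock3, a proteoglycan gene, and Usp53, at distances of 0.22 to 0.33. They had log2 ratios of -0.14 to 0.37 with ECS and 1.03 to 1.47 with fluoxetine. Likeness over 2 ratios is a description of these 4 arrays.

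Other genes of the clock were read from lists, each gene by its brightest probe set. For comparison, the median log2 ratio of all genes was 0.01 for ECS and -0.01 for fluoxetine, and 5.34% of all 7935 genes were past 1.5-fold upward with ECS and 4.18% downward, and with fluoxetine 5.82% upward and 5.13% downward. Of 7 further clock transcription factors 4 were measured, and none was past 1.5-fold with either treatment, whereas with signals as deposited 1 was lower with ECS and 1 higher with fluoxetine. Their median log2 ratio was -0.40 for ECS and -0.25 for fluoxetine. Bhlhe40, which encodes the E-box repressor DEC1, had a signal of 429.8 in the ECS pool and 644 in the sham pool, and 632 in the fluoxetine pool and 842 in the vehicle pool. Its log2 ratio of -0.58 with ECS was just under the size, and that with fluoxetine was -0.41. Both treated arrays were below their own controls. Sham over vehicle gave -0.39 at a control spread of 0.16, and the fluoxetine signal lay near that of sham. Rora, a nuclear receptor gene that activates Arntl, had log2 ratios of -0.47 and -0.53, Rorb, a related receptor gene, -0.33 and -0.09, and Npas2, a paralogue of Clock, -0.17 and 0.55.

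The output factors bind D-boxes, the motif of Per3. Hlf, an activator, was lower in both comparisons, at -1.55 for ECS and -1.36 for fluoxetine, and Tef, a related activator, was at -0.70 and -0.52. Nfil3, which encodes a repressor at the same motif, had a signal of 521 in the ECS pool and 148 in the sham pool, and 139 in the fluoxetine pool and 134 in the vehicle pool, so that the ECS array alone was high, as for Per1. Dbp, a further activator, had -0.20 and 0.05 at a control ratio of -0.54. Thus 1 of these 4 was higher and 2 were lower with ECS, and 1 was lower with fluoxetine, at medians of -0.45 and -0.24. The other 2 measured probe sets of Tef had -0.95 and 0.03 with ECS.

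Enzymes and partners of the clock proteins had median log2 ratios near 0, of 0.01 for ECS and 0.03 for fluoxetine in the enzymes and of -0.02 and 0.07 in the partners. Of 11 measured genes among 16 kinases, phosphatases and ubiquitin enzymes of PER and CRY, none was past 1.5-fold with ECS and 1 with fluoxetine, Gsk3a, a kinase gene, with a log2 ratio of -0.72. The control pools differed for Gsk3a, with sham over vehicle at -0.33 and a control spread of 0.15. Its signal was 954 in the fluoxetine pool, 1576 in the vehicle pool and 1253 in the sham pool. Csnk2a1, a casein kinase gene, had 0.31 and 0.38, Gsk3b, another kinase gene, 0.21 and 0.18, and Btrc, a ubiquitin ligase gene, -0.02 and -0.23. The other measured probe sets of Csnk2a1 had 0.60, 0.87, 0.19 and 0.12 with fluoxetine, so some were past 1.5-fold. With ECS they had 0.40, -0.09, 0.07 and 0.46. Of 11 measured genes among 13 partners and cofactors, none was past this size with either treatment (1 was lower with ECS in the signals as deposited). The dimmer probe sets of Sfpq, a gene of this list, had 0.27, -0.59, -0.07 and -0.31 with ECS. Sirt1, a deacetylase gene, was at -0.53 for ECS and 0.04 for fluoxetine. Nampt, an enzyme gene of NAD synthesis, had -0.39 and -0.33, Tipin, a partner of Timeless, -0.20 and -0.37, and Kat2b, an acetyltransferase gene, 0.18 and 0.44. For Tipin sham over vehicle gave -0.45, larger in size than either ratio. Of 5 measured genes among 8 that are rhythmic in many tissues (medians 0.02 and 0.09) 1 was higher with each treatment and none was lower, though with signals as deposited 1 was lower with ECS. Cdkn1a, the cell cycle inhibitor p21, was higher with both, at 1.64 and 1.81, though its signal in the vehicle pool was 48.6. Its signal in the sham pool was 89.1, so the control pools themselves differed, at a log2 ratio of sham to vehicle of 0.87. Wee1, a kinase gene of the cell cycle, had -0.52 and -0.15, Cirbp, which encodes a cold-inducible RNA-binding protein, -0.33 and -0.25, and Tspan4, a tetraspanin gene, 0.02 and 0.45. For Cirbp sham over vehicle gave -0.47, larger in size than either ratio.

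Genes known to respond to some of the inputs of Per1 were read in the same way. Of 13 measured genes among 16 activity-induced targets of the factor CREB, 11 were past 1.5-fold upward with ECS and 8 with fluoxetine, with none downward. The list had a median log2 ratio of 2.88 for ECS and 1.22 for fluoxetine. Fos had a signal of 4902 in the ECS pool and 141 in the sham pool, and 388 in the fluoxetine pool and 166 in the vehicle pool. Nr4a1, a nuclear receptor gene, had log2 ratios of 4.47 and 0.94, and Arc, a synaptic gene, 4.37 and 2.74. Junb, an AP-1 factor gene, and Dusp1, a phosphatase gene, both named after their values were seen, were past 1.5-fold upward with ECS and under that size with fluoxetine, at 2.88 and -0.25 for Junb and 3.09 and -0.36 for Dusp1. Fosb had signals of 489 in the ECS pool and 99.7 in the fluoxetine pool, and was below 50 in both control pools. Of 11 measured glucocorticoid-induced genes, Sgk1 (1.39) and Errfi1 (0.95), a feedback inhibitor of the EGF receptor, were higher with ECS and none was lower. The other measured probe set of Errfi1 was under 1.5-fold with ECS, at 0.24. With fluoxetine none was higher, and Zbtb16, a zinc finger gene, was lower, at -0.81. Fkbp5, a chaperone gene of the glucocorticoid receptor, had 0.42 and 0.21, and the median of the list was 0.15 in both comparisons.

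**Figure D4:**
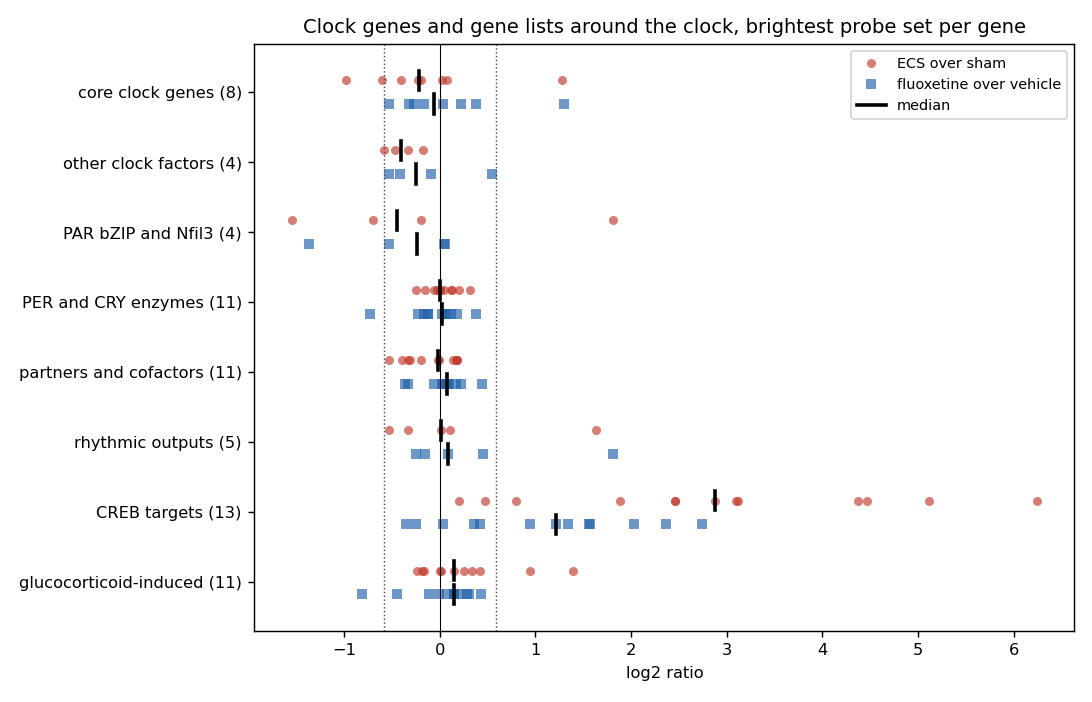
Log2 ratios of the measured core clock genes and of 7 lists of genes around the clock, with ECS over sham in red and fluoxetine over vehicle in blue. Points are genes (by their brightest probe set), a black bar gives the median of a list, the number of measured genes follows its name, and dotted lines mark 1.5-fold. Core clock genes have medians of -0.21 and -0.06, and CREB targets of 2.88 and 1.22.

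Some markers of cell types were past 1.5-fold as well, and their part in the clock values was not tested. Of all 7935 genes 9.53% were past this size with ECS and 11% with fluoxetine. A list with 1 marker past it is therefore not read as a change of that cell type. Each was counted by its brightest probe set, and other measured probe sets of some genes differed. Of 6 measured granule cell markers 3 were lower with ECS and 4 with fluoxetine, and the others were under 1.5-fold. The 6 had summed signals of 4584 in the ECS pool and 8878 in the sham pool, and 3023 in the fluoxetine pool and 9205 in the vehicle pool. Calb1, a calcium-binding protein gene of mature granule cells, was at -1.34 and -2.12, and Prox1, which defines granule cells, at -0.08 and 0.09. Of 5 measured neuroblast markers 4 were higher with ECS and 3 with fluoxetine, with summed signals of 3583 in the ECS pool and 2862 in the sham pool, and 3527 in the fluoxetine pool and 2618 in the vehicle pool. Of 6 astrocyte markers 1 was higher with ECS and 2 with fluoxetine. Gfap was higher with both, at 2.35 and 2.30, and its other measured probe set gave 2.30 and 2.06. With ECS, dimmer probe sets of Gja1 (-0.63), Slc1a3 (-0.72) and Aqp4 (0.67) were past 1.5-fold though their brightest were not. With fluoxetine this held for a dimmer probe set of Gja1, at -1.64, while its others were under the size. None of 5 oligodendrocyte or 6 microglia markers was past 1.5-fold by its brightest probe set, though as deposited 1 microglia marker was lower with ECS and 1 higher with fluoxetine. Dimmer probe sets of the oligodendrocyte genes Mobp (0.99) and Mbp (-0.67) were past 1.5-fold with ECS, while their others were under it. Of 4 measured pyramidal cell markers 1 was higher with each treatment. Of 6 interneuron markers 1 was higher with ECS and 2 with fluoxetine, and of 5 measured endothelial markers 1 with each. With signals as deposited no endothelial marker was past 1.5-fold with ECS and 2 were higher with fluoxetine, 4 granule cell markers were lower with ECS, and 1 astrocyte marker was lower with ECS. Ttr, the defining gene of the choroid plexus, was below the filter, with signals of 21.9 in the ECS pool and 20.1 in the sham pool, and 14.4 in the fluoxetine pool and 12.8 in the vehicle pool. Kl, the 1 measured marker of that tissue, was lower with fluoxetine, at -0.89, and at -0.28 with ECS. Its signals were low, at 58.9 in the fluoxetine pool, 109 in the vehicle pool and 84.3 in the sham pool. Sham over vehicle gave -0.37 at a control spread of 0.33.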

How the data were processed

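Pooled dentate gyrus RNA of each group was hybridized to 1 Affymetrix array for mouse genes, 4 arrays in all. The authors made the deposited values, which are linear signal intensities per probe set, with MAS5. A common scaling target is not given in the sources used here. Groups came from the sample titles. With Python 3.11.15, numpy 2.4.6 and pandas 2.3.3, probe sets were left out where they were array controls (64) or where the 4 deposited signals averaged under 50. Each array was scaled to a common median log2 signal, and log2 ratios were taken. Zeros were set to 0.1, but none stood past the filter. A change was at least 1.5-fold. With 1 array per group no test was run, and the number of arrays limits the precision. The steps were tested on simulated arrays.

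Gene names came from the platform annotation, in which 20380 probe sets have 1 gene, 691 several and 1555 none. None of the symbols differed from that of its gene identifier in the RefSeq gene list used here. Promoters came from RefSeq (GRCm38.p6) by symbol. The members and gene lists were chosen with earlier results of these data known. All probe sets of the members are named, up to 4 genes of each other list of clock genes, inputs or outputs (those with the largest mean absolute log2 ratio), and the 5 genes nearest to the members with the highest and the lowest difference, among probe sets with a mean signal of 200 or more. Of the cell type markers Calb1, Gfap and Kl follow this rule. Prox1 and Ttr define their types and were chosen after their values were seen. Mobp, Mbp, Slc1a3, Gja1, Aqp4 and the partner gene Sfpq were named because their probe sets differed. Alternatives were unscaled signals, quantile normalization, other signal filters, a floor of 50, a pseudocount of 16, control arrays exchanged between the treatments, 1.2-fold or 2-fold as the size, and 1 value per gene.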

Additional observations from a re-analysis of the deposited data

Results flagged for a closer look

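Cry1 had log2 ratios of opposite sign with the treatments, -0.98 with ECS and 0.22 with fluoxetine, a difference of -1.20. It was picked out because 1 of these ratios was past 1.5-fold and the other had the opposite sign. The difference was not tested, since each group has 1 array, and the ratio with fluoxetine was within its control spread of 0.25. No group had enough arrays for a search for arrays that stand apart.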

How the results depend on the processing

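No paired analysis was possible because each group has 1 array and the labels give no replicate numbers. The 3 member probe sets past 1.5-fold with ECS became 5 with no signal filter, where 27.7% of all probe sets were past it, and 1 at 2-fold, a size that 2.67% passed. The 1 with fluoxetine became 2 when 1 array at 50 was enough (Nr1d1 was added; 12.3% of all probe sets), 4 of 14 with no filter (27.7%), and 5 at 1.2-fold, a size that 36.7% of all probe sets passed. Between sham and vehicle, for which the alternatives were chosen after seeing the data, the 0 became 2 with signals as deposited (34.8% of all probe sets), 1 with 1 array at 50 (5.32%), 2 with no filter (24%) and 2 at 1.2-fold (23.8%). More probe sets entered under the wider filters, and the deposited arrays of these pools differ by a median log2 ratio of -0.50. The other alternatives kept these counts within 1.5 times. No ratio past 1.5-fold changed sign. With the control arrays exchanged 8 of 27 values moved by more than the control spread and 19 did not, and with signals as deposited likewise 8 and 19.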
